A study of Mus musculus with 9 samples.

Results

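The transcription factors of the AP-1, NFAT and EGR families that follow T-cell receptor signals were examined in T-cell isolates of mouse bone marrow, with and without B-cell acute lymphoblastic leukemia (B-ALL). Members were all probes named Fos, Fosb, Jun, Junb, Jund or Batf, or with a name that begins with Nfatc or Egr. The rule found 9 of the 785 probes of the panel, namely Fos, Jun, Junb, Jund, Batf, Nfatc1, Nfatc2, Nfatc3 and Nfatc4. No probe was matched to Fosb or to an Egr gene, so the EGR family has no value here. The 9 mice were female wild-type C57BL/6 mice of 6 to 8 weeks at the start, which were not irradiated. The first group of 3 had no leukemia. The second group of 3 received 200000 B-ALL cells by tail vein, from a BCR-ABL1+ Arf-/- line that carries luciferase and GFP, so the leukemia is that of a single line. The labels list this group as untreated, while the study's methods describe mice with leukemia that received vehicle. The third group of 3 had the same leukemia and received recombinant murine IL-12 p70 (rIL-12), 1 µg per day into the peritoneum for 5 days from day 3. T-cells were taken at day 7 with a Pan-T-cell kit, and RNA was measured on the nCounter Immune Exhaustion panel, which counts color-coded probes bound to RNA without amplification.

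AP-1 is a dimer of a Fos and a Jun family protein. The T-cell receptor induces it through the MAP kinases, and it binds DNA together with NFAT to turn on cytokine genes. NFAT proteins are kept in the cytoplasm by phosphorylation until calcium activates the phosphatase calcineurin, which releases them to the nucleus. NFAT without its AP-1 partner is known to drive genes of anergy and exhaustion, and Batf, a small AP-1 protein that pairs with Jun proteins and with IRF4, is known for its part in effector and exhausted T-cells. RNA levels of these genes do not show whether the proteins were phosphorylated or in the nucleus.

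Total counts were 257613 to 711748 per mouse, with mouse 3 of the leukemia group the lowest. Counts were scaled between mice and are given below as normalized counts, which compare mice for 1 probe and not probes with each other. A gene was called when the quasi-likelihood test of edgeR gave a p under 0.05 after Benjamini-Hochberg adjustment over all 785 probes and the change was at least 1.5-fold. A probe for a viral gene that the mouse genome lacks gave 53 to 114 counts. Raw counts of Nfatc4 were 15 to 29 in the 9 mice, all under the lowest count of that probe, so its values may be background. The other 8 members had 67 or more raw counts in every mouse. In mouse 3 of the leukemia group, Nfatc2 (67) and Nfatc3 (99) lay within the range of the viral probe, which gave 66 there. These values may include background. The isolates differed in their T-cell marker RNA. The summed normalized count of the 7 measured T-cell markers (Cd3d, Cd3e, Cd3g, Cd5, Cd6, Cd28 and Lck) was 4377 to 7336 without leukemia, 2896 to 4064 with leukemia and 1562 to 2889 with rIL-12. The summed count of Cd8a, Cd8b1 and Cd4 was 1500.1 to 2837, 471 to 1151 and 363 to 520.4 in the same order. Cd8b1 was called lower with leukemia (-2.15 on the log2 scale) and with rIL-12 (-3.12) against no leukemia, as was Cd8a (-1.68 and -2.55), while Cd4 had 0.83 and -0.02 and was not called, so the CD8 and CD4 RNA of the isolates changed unequally. The 9 myeloid markers summed to 2768 to 2896, 3275 to 3493 and 3074 to 3870 in the same order, and the 3 mast cell or basophil markers to 961 to 1096, 1800 to 2116 and 1858 to 2125. The 7 markers of B-cells or B-ALL summed to 1442 to 1558, 1700 to 1948 and 1708 to 1976, and the 7 NK markers to 2794 to 3300, 2309 to 3261 and 2706 to 4021. None of the marker lists was at 0 in any group. In such isolates, fewer T-cells and less RNA per T-cell cannot be told apart, and the part of other cells in the changes of the AP-1 and NFAT genes was not tested.

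The sequences just before the annotated start of the members called in a comparison below are shown because several of these genes were called in the same comparison. They are the last 120 bases before the start, read 5′ to 3′ on the strand of the gene, from RefSeq on build GRCm38.p6. The positions are chr12:85473770-85473889 (plus strand) for Fos, chr8:84978749-84978868 (minus strand) for Junb, chr8:70697619-70697738 (plus strand) for Jund, chr2:168601658-168601777 (minus strand) for the first of 2 starts of Nfatc2, and chr8:106058698-106058817 (plus strand) for the first of 2 starts of Nfatc3. Capitals mark TGACG, the core of the element bound by CREB and ATF proteins, GGAAA, the core of NFAT sites, and TATAAA, the TATA box, on either strand.
Fos: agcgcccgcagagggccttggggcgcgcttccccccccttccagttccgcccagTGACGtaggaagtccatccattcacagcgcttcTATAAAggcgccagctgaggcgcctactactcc
Junb: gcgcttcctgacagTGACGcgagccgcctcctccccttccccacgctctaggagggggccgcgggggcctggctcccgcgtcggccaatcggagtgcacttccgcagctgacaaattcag
Jund: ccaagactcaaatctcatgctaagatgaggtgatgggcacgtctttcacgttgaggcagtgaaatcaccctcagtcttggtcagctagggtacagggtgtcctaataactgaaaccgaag
Nfatc2: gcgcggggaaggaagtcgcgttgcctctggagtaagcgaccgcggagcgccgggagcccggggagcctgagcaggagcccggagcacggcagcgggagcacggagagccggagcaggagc
Nfatc3: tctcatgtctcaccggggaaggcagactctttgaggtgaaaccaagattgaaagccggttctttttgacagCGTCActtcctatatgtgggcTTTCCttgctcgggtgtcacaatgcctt
In Fos, TGACG lay 66 to 62 bases and TATAAA 33 to 28 bases before the start. Junb held TGACG 106 to 102 bases before the start. Nfatc3 held TGACG 49 to 45 bases and GGAAA 28 to 24 bases before the start, both on the reverse strand and so printed as their complements. These stretches of Jund and Nfatc2 held none of the searched letters. Over the 250 bases before the start, TGACG was found in 4 of the 8 member genes with an entry (Fos, Junb, Batf and Nfatc3), GGAAA in 5 (Batf, Jun, Nfatc2, Nfatc3 and Nfatc4) and TATAAA in 2 (Fos and Nfatc2). Of 32851 promoters of the same length, 17.8% held TGACG, 55.6% GGAAA and 12.4% TATAAA. The AP-1 site TGANTCA (6.75% of all promoters), the full cAMP response element TGACGTCA (1.55%, which contains TGACG), the CArG box of serum response (1.47%), the STAT element TTCNNNGAA (7.02%) and the EGR site GCGNGGGCG (4.70%) were found in none of the 8. A match of letters describes these windows and is no evidence of binding.

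Comparing the groups asked how leukemia, and leukemia with rIL-12, changed the RNA of these factors. In mice with leukemia, no member passed the threshold against mice without leukemia. In rIL-12 treated mice with leukemia, the RNA of Fos, Junb, Jund and Nfatc2 was lower than in mice without leukemia, between 1.51-fold for Junb and 1.87-fold for Jund. Against mice with leukemia alone, rIL-12 treated mice had 1.77-fold less Junb and 2.24-fold more Nfatc3. All 3 comparisons draw on the same 3 groups of mice, so each value enters 2 of them.

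For leukemia against no leukemia, 0 members were called, where 1.27% of all 785 probes were called higher and 1.4% lower. At an unadjusted p under 0.05, edgeR gave 1 member, Nfatc3, and DESeq2 with an adjusted p called 0. The groups did not overlap for 1 member that was higher (Batf), where this held for 12.7% of all probes, and for 1 that was lower (Jun), where it held for 9.81%. For rIL-12 against no leukemia, 4 of the 9 members were called lower, where 8.66% of all probes were, and 0 higher, where 8.92% were. DESeq2 called the same 4 and 0 higher, and at an unadjusted p under 0.05 edgeR gave 1 higher, Batf. The groups did not overlap for 6 members that were lower (Fos, Jun, Junb, Jund, Nfatc1 and Nfatc2), against 16.7% of all probes, and for 1 that was higher (Batf), against 18.9%. For rIL-12 against leukemia, 1 member was called higher, where 8.54% of all probes were, and 1 lower, where 5.22% were. DESeq2 called both of these and also Fos, as lower. At an unadjusted p under 0.05 edgeR gave 5 members, Nfatc3 higher and Fos, Junb, Jund and Nfatc1 lower. The groups did not overlap for 1 member that was higher (Nfatc3), against 15.4% of all probes, and for 2 that were lower (Junb and Nfatc1), against 15.3%. The median log2 fold change of the 9 members was -0.07 with leukemia against none, -0.47 with rIL-12 against none and -0.33 with rIL-12 against leukemia, beside medians over all probes of 0.05, 0.02 and -0.08. Scaling by 12 housekeeping genes moved the median of all probes to -0.24 for rIL-12 against none and -0.44 for rIL-12 against leukemia. Total count scaling moved them to -0.15 and -0.28, upper quartile scaling moved the median for rIL-12 against leukemia to -0.20 and that for leukemia against none to 0.17, and median scaling moved that for rIL-12 against leukemia to 0.05. The split of calls over all probes moved with it. For rIL-12 against none, 70 probes were higher and 68 lower, but 28 and 95 with housekeeping and 37 and 83 with total count scaling. For rIL-12 against leukemia, 67 were higher and 41 lower, but 29 and 164 with housekeeping, 42 and 85 with total count, 49 and 58 with upper quartile and 109 and 30 with median scaling. For leukemia against none, 10 were higher and 11 lower, but 2 and 1 with housekeeping and 9 and 20 with median scaling. Of the 12 housekeeping genes, Ubb (0.80) and Sdha (0.63) were themselves called higher with rIL-12 against no leukemia, and Ubb (1.09), Sdha (0.90), Tbp (0.73) and Abcf1 (0.59) against leukemia. The 4 members called with rIL-12 against none were all called with housekeeping and total count scaling, which added Nfatc1 in both and Jun with housekeeping scaling.

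**Figure D1:**
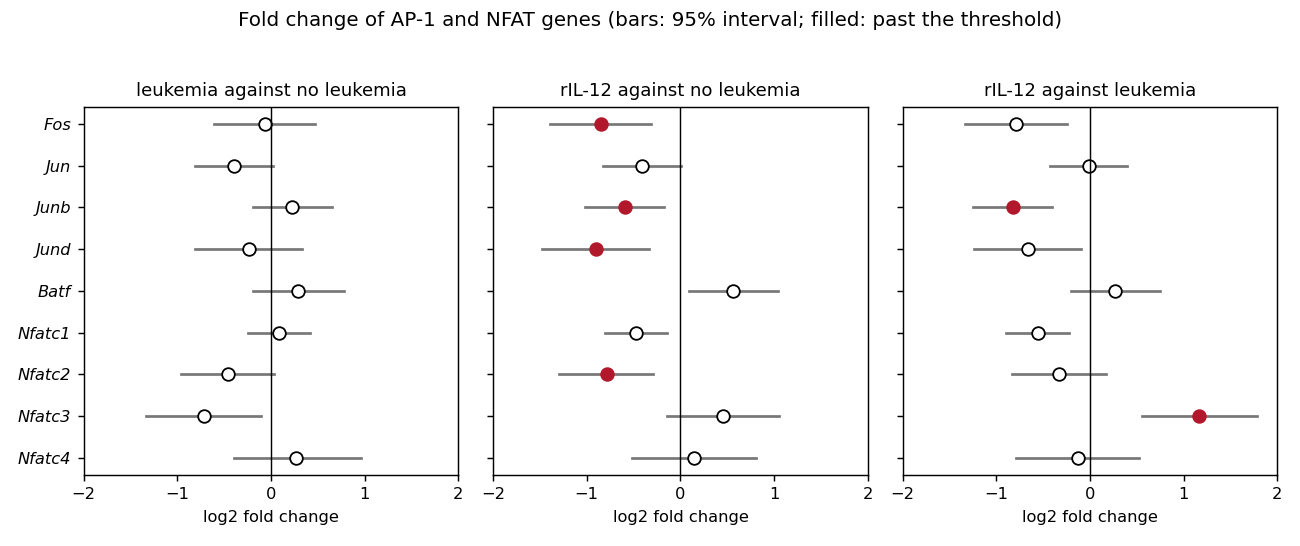
Log2 fold change of the 9 members (rows) in the 3 comparisons (panels). Points are edgeR estimates, bars are 95% intervals, and filled points passed an adjusted p of 0.05 and a 1.5-fold change. No point is filled for leukemia against no leukemia, Fos, Junb, Jund and Nfatc2 lie left of 0 and are filled for rIL-12 against no leukemia, and Nfatc3 lies right and Junb left of 0 for rIL-12 against leukemia.

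Fos, the inducible partner of the Jun proteins in AP-1, had 705, 903 and 724 normalized counts without leukemia, 885, 836 and 499.6 with leukemia, and 461, 292 and 540.1 with rIL-12. The rIL-12 treated mice all lay below the mice without leukemia, while mouse 3 of the leukemia group fell inside their range. The means were 777 ± 109.5 without leukemia, 740.1 ± 210 with leukemia and 431 ± 127 with rIL-12 (SD, n = 3 mice each). Against mice without leukemia, the log2 fold change with rIL-12 was -0.85 (standard error 0.25, edgeR adjusted p = 0.0318). Against mice with leukemia it was -0.78 (standard error 0.25), and the adjusted p of 0.0502 from edgeR missed the threshold. Neither pair of neighbours in this order passed the threshold, and rIL-12 and leukemia overlapped as well. The 95% interval for rIL-12 against leukemia was -1.33 to -0.24, and this value passed the threshold in 8 of 17 other settings. Leukemia against no leukemia gave a log2 fold change of -0.07 with a 95% interval of -0.60 to 0.47, and its sign turned when counts were scaled by housekeeping genes or by the upper quartile.

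Junb, the Jun family member known to be induced early by receptor and cytokine signals, had 1389, 1184 and 1139 normalized counts without leukemia, 1348, 1806 and 1189.8 with leukemia, and 692, 745 and 1017 with rIL-12. All 3 rIL-12 treated mice lay below all 6 other mice. Means were 1237 ± 134, 1448 ± 320.0 and 818 ± 174 (SD, n = 3 mice each). With rIL-12 the log2 fold change was -0.83 against leukemia (standard error 0.20, edgeR adjusted p = 0.0181) and -0.60 against no leukemia (standard error 0.20, adjusted p = 0.0497). The latter stood at the edge of both thresholds, and it was not called in a model of only the 2 groups or with median scaling, DESeq2 size factors, upper quartile scaling or a replicate block. Leukemia against no leukemia gave 0.23 (standard error 0.20, adjusted p = 0.681), with overlapping groups.

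Jund, which is expressed without stimulation in most cells, had 868, 845 and 771 normalized counts without leukemia, 680.3, 875 and 543 with leukemia, and 325, 333 and 671 with rIL-12. Mice 1 and 2 of the rIL-12 group had less than any other mouse, and mouse 3 of that group lay within the range of the leukemia group. From high to low, the means were those of no leukemia (828 ± 50.5), leukemia (699.6 ± 167) and rIL-12 (443 ± 198, SD, n = 3 mice each). The change with rIL-12 was -0.90 on the log2 scale against no leukemia (standard error 0.26, edgeR adjusted p = 0.0311) and -0.66 against leukemia (adjusted p = 0.0972). Neither leukemia against no leukemia nor rIL-12 against leukemia passed the threshold. For rIL-12 against leukemia, the unadjusted p in edgeR was 0.0261 and the 95% interval was -1.24 to -0.09, although the groups overlapped. For leukemia against no leukemia, the same interval was -0.81 to 0.33.

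Jun, the first described partner of Fos, had 577, 578 and 684 normalized counts without leukemia, 445, 572.5 and 374 with leukemia, and 409, 416 and 558 with rIL-12. Both groups with leukemia lay below the mice without, though mouse 2 of the leukemia group came close to them. Means were 613 ± 61.7, 464 ± 100.4 and 461 ± 84.0 (SD, n = 3 mice each). The log2 fold change was -0.40 with leukemia (standard error 0.19, edgeR adjusted p = 0.356) and -0.41 with rIL-12 (standard error 0.19, adjusted p = 0.154), neither of them called. Between rIL-12 and leukemia it was -0.01 with a 95% interval of -0.43 to 0.40, and its sign turned under median scaling and DESeq2 size factors.

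Batf was the AP-1 member with the opposite order. It had 181, 152 and 179.8 normalized counts without leukemia, 196, 199 and 236 with leukemia, and 191, 348 and 219 with rIL-12. All 6 mice with leukemia, treated or not, lay above the 3 mice without, and mouse 2 of the rIL-12 group was the highest. Means were 171 ± 16.7, 209.98 ± 22.2 and 253 ± 83.8 (SD, n = 3 mice each). Its log2 fold changes of 0.29 with leukemia (standard error 0.22, edgeR adjusted p = 0.6496) and 0.56 with rIL-12 against no leukemia (standard error 0.22, adjusted p = 0.0912) did not pass the threshold. Between rIL-12 and leukemia the value was 0.27 (standard error 0.22), and it was -0.10 when counts were scaled by housekeeping genes.

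**Figure D2:**
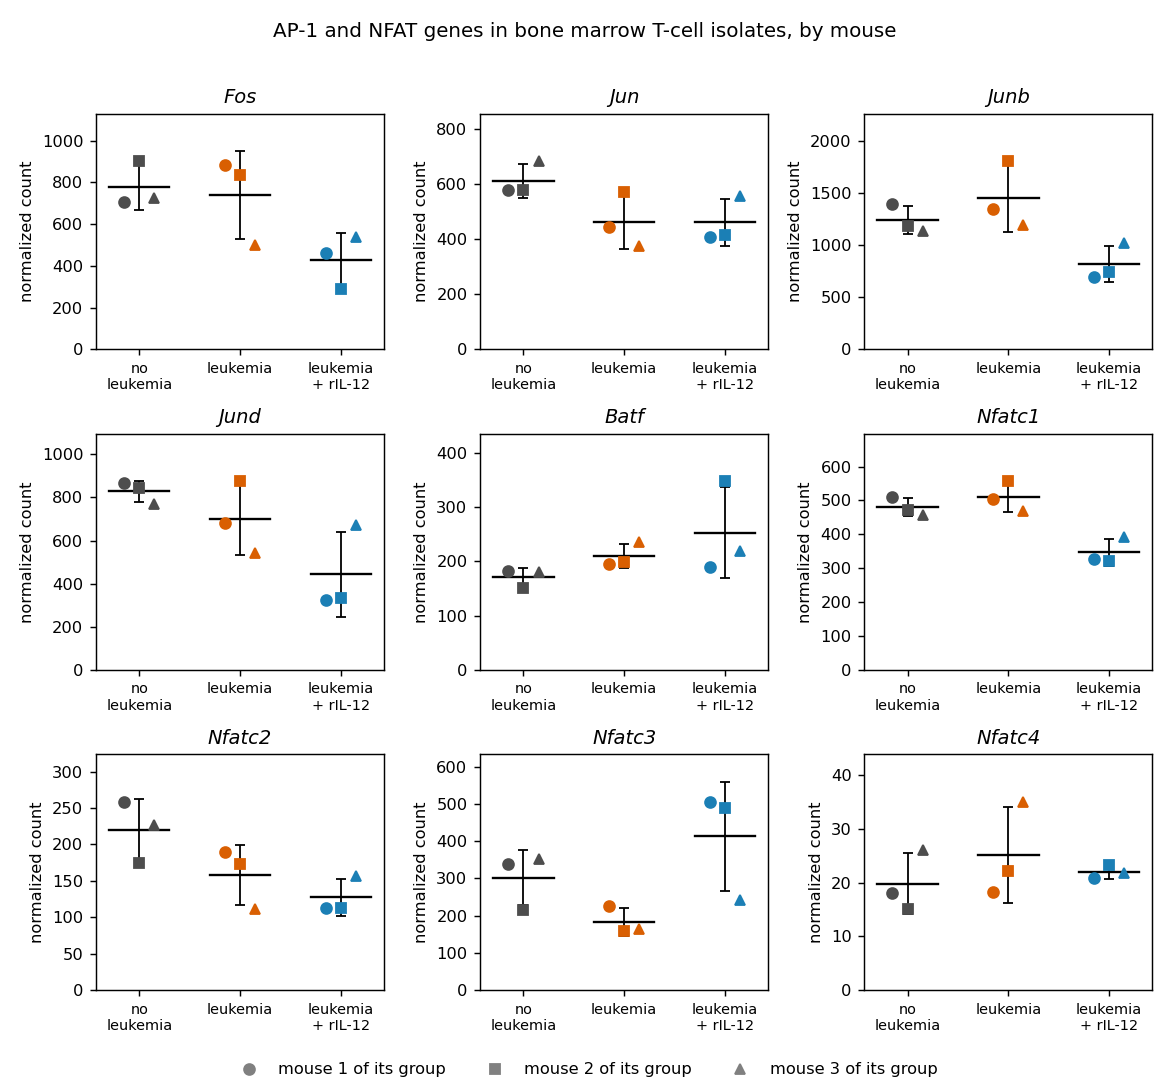
Normalized counts (linear axis from 0, scale per panel) of the 9 members in each of the 9 mice. Symbols are mice 1 to 3 of a group, and black lines and bars are the mean and SD of 3 mice. The rIL-12 treated mice are lowest as a group for Fos, Junb, Jund, Nfatc1 and Nfatc2, and their mice 1 and 2 are highest of all 9 for Nfatc3, at 507 and 489.

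Among the NFAT genes, Nfatc2, which encodes the NFAT1 protein that resting T-cells already hold, was called lower with rIL-12. It had 259, 174 and 227 normalized counts without leukemia, 189.8, 173 and 112 with leukemia, and 113, 113 and 156 with rIL-12. The rIL-12 treated mice lay below the mice without leukemia, and the leukemia group spanned the gap and overlapped both. Means were 220.03 ± 42.9, 158 ± 40.9 and 127 ± 25.1 (SD, n = 3 mice each). The log2 fold change with rIL-12 was -0.79 against no leukemia (standard error 0.23, edgeR adjusted p = 0.0309) and -0.33 against leukemia (standard error 0.23, adjusted p = 0.356). Leukemia against no leukemia gave -0.46 (standard error 0.23, adjusted p = 0.382), so the neighbours in the order did not differ beyond their spread.

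Nfatc3, which encodes NFAT4, moved the other way with rIL-12. It had 339, 216 and 352 normalized counts without leukemia, 227, 158 and 165 with leukemia, and 507, 489 and 243 with rIL-12. All rIL-12 treated mice lay above all mice with leukemia alone, mouse 3 narrowly and mice 1 and 2 by a wide margin. Means were 302 ± 74.6, 183 ± 38.0 and 413 ± 147 (SD, n = 3 mice each). The log2 fold change of rIL-12 against leukemia was 1.17 (standard error 0.28, 95% interval 0.56 to 1.78, edgeR adjusted p = 0.0194). Leukemia against no leukemia gave -0.71 (standard error 0.28, unadjusted p = 0.0253 and adjusted p = 0.231 in edgeR), with mouse 1 of the leukemia group above mouse 2 of the group without. Against no leukemia, the value with rIL-12 was 0.45 (standard error 0.28, adjusted p = 0.297) and the groups overlapped.

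Nfatc1, the NFAT gene known to raise its own expression after activation, had 509, 471 and 458 normalized counts without leukemia, 504, 557 and 469.6 with leukemia, and 326, 322 and 391 with rIL-12. All 3 rIL-12 treated mice lay below the other 6. Means were 479.6 ± 26.6, 510.0 ± 43.9 and 346 ± 38.8 (SD, n = 3 mice each). Its log2 fold change with rIL-12 was -0.47 against no leukemia (standard error 0.15, edgeR adjusted p = 0.0480) and -0.56 against leukemia (standard error 0.15, adjusted p = 0.0304). Both adjusted p-values passed, but the changes fell short of 1.5-fold, at 1.38-fold and 1.47-fold, so Nfatc1 was not called. Without a fold threshold, 5 members would be called for rIL-12 against no leukemia and 3 for rIL-12 against leukemia, with Nfatc1 the one added in both. Nfatc4, whose values may be background, had 15.2 to 26.1 normalized counts without leukemia, 18.2 to 35.1 with leukemia and 20.8 to 23.4 with rIL-12. It passed no test. Nfat5, a relative that calcineurin does not regulate and that the rule does not include, had log2 fold changes with rIL-12 of -0.51 against no leukemia (standard error 0.16, edgeR adjusted p = 0.0460) and -0.55 against leukemia (adjusted p = 0.0423), both under 1.5-fold.

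Single mice bore on these calls. Mouse 3 of the rIL-12 group was the highest of its group for Fos, Jun, Junb, Jund, Nfatc1 and Nfatc2 and the lowest for Nfatc3, and so lay nearest to the other groups. Mouse 3 of the leukemia group, the one with the fewest counts, was the lowest of its group for the same 6 genes and the highest for Batf and Nfatc4. Without mouse 3 of the rIL-12 group, 6 members were called against no leukemia, with Batf and Nfatc3 added as higher, and 5 against leukemia, with Fos, Jund and Nfatc1 added as lower. Junb against no leukemia passed without that mouse or without mouse 2 of the leukemia group, and not without any other mouse. In that setting the change against leukemia was -0.98 for Fos, -1.09 for Jund and 1.43 for Nfatc3 on the log2 scale. Leaving out mouse 2 of the rIL-12 group, or mouse 1 or mouse 3 without leukemia, left 0 members called against no leukemia. Without mouse 2 without leukemia 1 was left (Nfatc2), and without mouse 1 of the rIL-12 group 2 were called (Fos lower, Batf higher). For rIL-12 against leukemia, 0 were called without mouse 1 or mouse 2 of the rIL-12 group or mouse 2 or mouse 3 of the leukemia group. The 6 called values kept their direction with each of the 9 mice left out, and the log2 fold changes were -1.05 to -0.64 for Fos, -1.33 to -0.72 for Jund, -0.96 to -0.64 for Nfatc2 and -0.78 to -0.49 for Junb against no leukemia. Against leukemia they were -1.01 to -0.67 for Junb and 0.99 to 1.43 for Nfatc3.

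**Figure D3:**
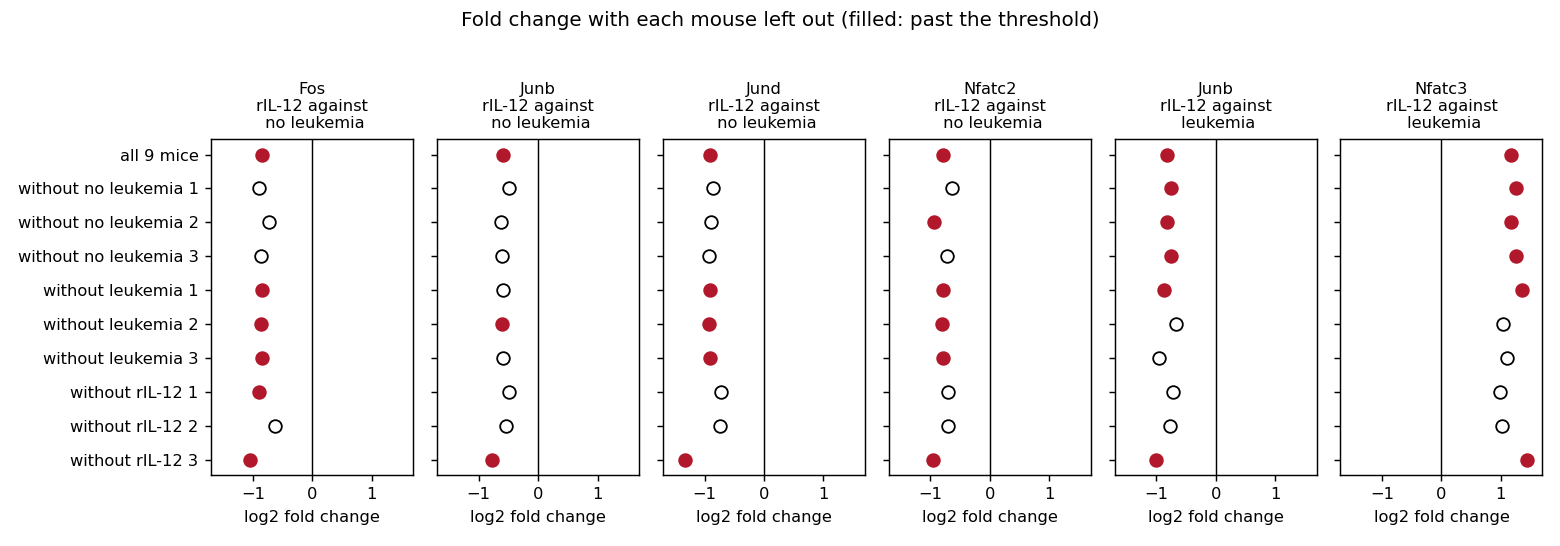
Log2 fold change (horizontal axis) of the 6 called values with all 9 mice and with each mouse left out (rows). Filled points passed the threshold. All points keep the side of 0 of the value from all mice, and the largest shifts outward for Jund and Nfatc3 come without mouse 3 of the rIL-12 group, at -1.33 and 1.43.

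Ratios of 2 genes within a mouse need no scaling between mice and show how the members changed relative to each other. The log2 ratio of the raw counts of Jun to Junb was -1.27, -1.04 and -0.73 without leukemia, -1.60, -1.66 and -1.67 with leukemia, and -0.76, -0.84 and -0.87 with rIL-12. The leukemia group lay below both other groups, by 0.63 against no leukemia and 0.82 against rIL-12, and its mice differed little (-1.64 ± 0.04, SD, n = 3 mice). The ratio of Fos to Jun was 0.99, 0.55 and 0.42 with leukemia and 0.17, -0.51 and -0.05 with rIL-12, without overlap, and the mice without leukemia (0.29, 0.65 and 0.08) overlapped both. The ratio of Jund to Batf was 2.28 ± 0.19 without leukemia and 0.77 ± 0.84 with rIL-12 (SD, n = 3 mice each), without overlap, and mouse 2 of the rIL-12 group had the lowest value of all mice (-0.06). Among the NFAT genes, Nfatc1 to Nfatc3 was 0.59, 1.12 and 0.38 without leukemia, 1.15, 1.82 and 1.51 with leukemia, and -0.64, -0.60 and 0.69 with rIL-12. The leukemia group lay above both other groups for that ratio, by 0.79 and 1.67. Groups did not overlap in 15 of 39 comparisons of ratios made, and each of the exact two-sided permutation tests gave p = 0.1 or more, the smallest that 3 mice against 3 allow, with an adjusted p of at least 0.26. The share for ratios of other probes was not computed, so whether this count is particular to these genes was not tested. The ratios shown all had such a comparison, while Fos to Junb, Fos to Jund and Nfatc1 to Nfatc2 overlapped in every comparison.

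**Figure D4:**
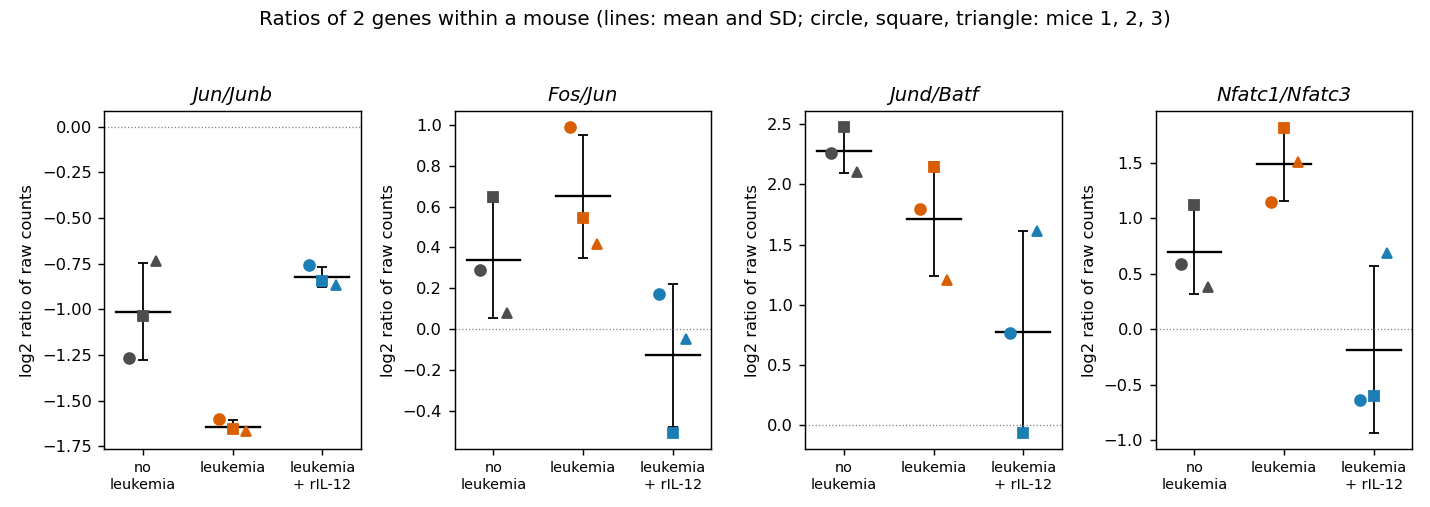
Log2 ratio of the raw counts of 2 genes in the same mouse (vertical axis), for 4 ratios and 3 groups. Points are mice, black lines and bars are the mean and SD of 3 mice, and the dotted line is equal counts. Jun to Junb is lowest in the leukemia group at -1.60 to -1.67, and Nfatc1 to Nfatc3 is highest there at 1.15 to 1.82.

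T-cell marker RNA was lower in the rIL-12 group too, and its part in the lower values of members was not tested. With rIL-12 against no leukemia, all 7 T-cell markers were called lower, and their median change was -1.47 on the log2 scale. With leukemia against no leukemia, 0 of the 7 were called and their median was -0.74, beside -0.07 for the 9 members. When each member was divided by the geometric mean of these 7 markers in the same mouse, the directions differed from those of the normalized counts. With rIL-12 against no leukemia, this log2 ratio was higher by 0.46 for Fos, 0.74 for Junb, 0.37 for Jund and 0.56 for Nfatc2, and by 1.76 for Nfatc3 and 1.87 for Batf. The groups did not overlap for 7 of the 9 members, all higher, where the same held for 88% of all probes, and Fos and Jund overlapped. The median of all probes was higher by 1.39 on this scale, more than the value of Fos, Junb, Jund or Nfatc2. With rIL-12 against leukemia, the ratio differed by 0.00 for Jund, -0.06 for Fos and -0.10 for Junb and by 1.84 for Nfatc3, beside 0.64 for the median probe. Nfatc3 was higher there without overlap, as were Jun (0.72) and Nfatc2 (0.43), where 39% of all probes were. With leukemia against no leukemia, Junb was higher by 0.84, Nfatc1 by 0.72 and Batf by 0.93 without overlap, beside 0.68 for the median probe. Nfatc4, whose values may be background, was also higher without overlap, as were 46.6% of all probes. The values on this scale are descriptions with no test, and how much of each gene's RNA came from T-cells was not tested.

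**Figure D5:**
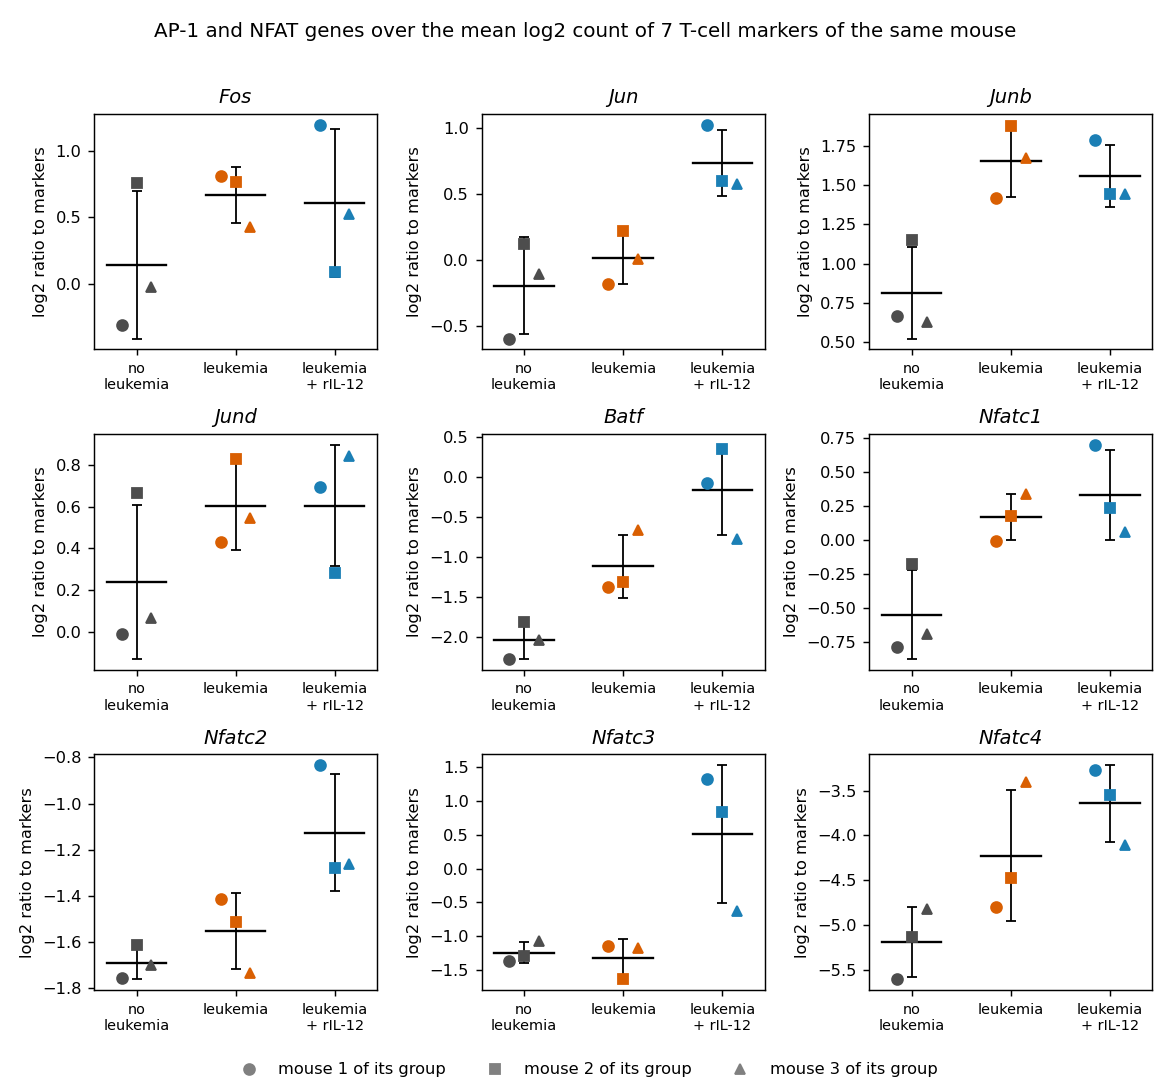
Log2 ratio of each member to the geometric mean of 7 T-cell markers in the same mouse (vertical axis, scale per panel), for the 9 mice. Symbols are mice 1 to 3 of a group, and lines and bars are the mean and SD of 3 mice. The mean of Batf is -2.04 without leukemia and -0.17 with rIL-12, while Fos, Junb and Jund differ by 0.10 or less between leukemia and rIL-12.

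The signaling genes upstream of AP-1 and NFAT were counted from a list of T-cell receptor, calcineurin and MAP kinase genes, 27 of them measured. With rIL-12 against no leukemia, 9 were called lower and 0 higher, with a list median of -0.12 on the log2 scale, and Hras (0.52, edgeR adjusted p = 0.0419) was higher by less than 1.5-fold. The largest falls were those of Rasgrp1, which activates Ras in T-cells (-2.17), the receptor chains Cd3d (-1.71), Cd3e (-1.56) and Cd3g (-1.28), and the kinases Lck (-1.60) and Zap70 (-1.15). Cd3d, Cd3e, Cd3g, Lck and Cd28, which was also called, are T-cell markers as well. Of the calcineurin genes, Ppp3cc, a catalytic subunit, fell by 1.04 on the log2 scale (standard error 0.21, edgeR adjusted p = 0.0045), while Ppp3ca (-0.09) and the regulatory subunit Ppp3r1 (0.18) were not called. Against leukemia, 4 were called lower with rIL-12 (Zap70, Lck, Ppp3cc and Plcg1, the phospholipase that starts the calcium signal) and 1 higher (Hras, 0.63), with a list median of -0.07. With leukemia against no leukemia, 1 was called, Rasgrp1, which was lower (-1.59), and the list median was -0.12. Of 11 measured inhibitors of receptor signaling, 2 were called lower with rIL-12 against no leukemia, the diacylglycerol kinase Dgka (-2.33) and the phosphatase Ptpn22 (-0.95). Against leukemia 3 were lower, Dgka (-1.03), the ubiquitin ligase Cbl (-0.76) and Dgkz (-0.59), and with leukemia against none 1 was, Dgka (-1.30). The list medians were -0.45, -0.48 and -0.02 for these 3 comparisons, beside medians over all probes of 0.02, -0.08 and 0.05. Of all probes, 8.66% were called lower and 8.92% higher with rIL-12 against none. Against leukemia, 5.22% were called lower and 8.54% higher, and with leukemia against none 1.4% and 1.27%.

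Genes that activation is known to induce did not follow a single direction. Of 22 measured, 2 were called higher with rIL-12 against no leukemia, the cytokines Il21 (log2 fold change 1.81, raw counts of 14 to 162 that reach under the viral probe) and Ifng (1.39), and 1 lower, Nr4a1, an orphan receptor of the immediate early response (-0.78). Nr4a1 was also lower against leukemia (-1.11, edgeR adjusted p = 0.0155), as was the costimulatory receptor Tnfrsf9 (-1.04), which was the single gene of the list called with leukemia against none (1.15). List medians were 0.02 with rIL-12 against none, -0.22 against leukemia and 0.20 with leukemia against none. All probes had medians of 0.02, -0.08 and 0.05 in the same order. Of all probes, 8.92% were called higher and 8.66% lower with rIL-12 against none, so the 2 of 22 called higher lay near that share. Against leukemia, 8.54% were called higher and 5.22% lower, and with leukemia against none 1.27% and 1.4%. Of 9 measured genes linked to NFAT in exhausted cells, 3 were called higher with leukemia against no leukemia, Lag3 (2.07), Pdcd1 (1.58) and Tigit (1.57), with a list median of 0.80. These 3 calls, and those of Rasgrp1, Dgka and Tnfrsf9 with leukemia against none, were all lost with housekeeping scaling, with the methods' t-test and adjusted p, and without mouse 1 or 3 of the group without leukemia or mouse 2 or 3 of the leukemia group. Raw counts of Lag3 (from 38), Pdcd1 (from 52) and Havcr2 (22 to 87) extended below the range of the viral probe (53 to 114), and may include background. Those of Nr4a1 (63 to 179), Tnfrsf9 (65 to 161), Entpd1 (72 to 190) and Tigit (from 98) reached into that range. With rIL-12 against no leukemia Tigit (1.11), Havcr2 (0.85) and Entpd1 (0.67) were called higher and Nr4a1 lower, with a median of 0.45, and against leukemia Pdcd1 (-1.13) and Nr4a1 were called lower, with a median of -0.46. Of the AP-1 and IRF partners outside the rule, Atf4, Irf4 and Irf8 were measured, with edgeR adjusted p-values of 0.0954 or more in the 3 comparisons. Irf4, the partner of Batf, had a log2 fold change of 0.47 with leukemia (standard error 0.19, adjusted p = 0.223). Of 4 measured genes of the early and stress response, Klf2, a factor of resting T-cells, was called lower in both groups with leukemia, with log2 fold changes of -1.43 without and -1.89 with rIL-12 against no leukemia. Both calls were lost with the methods' t-test and adjusted p. The call without rIL-12 was also lost when mouse 1 or 3 without leukemia, or mouse 2 or 3 of the leukemia group, was left out.

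Across the 9 mice, the log2 normalized counts of Junb and Nfatc1 followed each other most closely among the members, with a Pearson r of 0.98, and Junb with Jund had 0.88. Batf and Fos ran opposite with -0.85, and Junb and Nfatc3 with -0.78. Deviations from the group means gave 0.97 for Junb and Nfatc1, 0.92 for Junb and Jund and -0.84 for Batf and Fos. These are descriptions over 9 mice in 3 groups, which share depth and T-cell marker content, and no test was made. The probes most like each called member over the 9 mice were Rela (0.94), Ptk2b and Sema4d (0.93 each) for Fos, Stim1, Hcst (0.95 each) and Zap70 (0.94) for Junb, and Cd28 (0.96), Hcst (0.95) and Zap70 (0.94) for Jund. For Nfatc2 they were Grap2, Ptprc and Klrd1 (0.95 each), and for Nfatc3 they were Yy1, Itgal (0.99 each) and Ccnt1 (0.97). Ccnt1, a subunit of the elongation kinase P-TEFb, was itself called higher with rIL-12 against leukemia, by 0.93 on the log2 scale (standard error 0.21, edgeR adjusted p = 0.0155).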

How the data were processed

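The values deposited by the authors are raw barcode counts, 1 whole number for each of 785 nCounter probes in each mouse. The nSolver normalization of the methods is not in these values, and its settings are not given in the sources used here. All columns were used. Probes were named through RefSeq transcript names, 751 of them with a symbol and 34 without. Each mouse was 1 replicate, and pairs of mice of 1 group had a chi-square of 5.54 to 60.0 per degree of freedom, above counting error.

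Counts were scaled with TMM and fitted in edgeR 4.0.16 (R 4.3.3) with all 9 mice in 1 quasi-likelihood model, no replicate block, a prior count of 1 for fold changes and no filter on low counts. Genes were called at a 1.5-fold change or more and a Benjamini-Hochberg adjusted p under 0.05, taken over the whole table. In simulated data, 2-fold changes were recovered for 95%, 91% and 93% of genes in the comparisons of leukemia with none, rIL-12 with none and rIL-12 with leukemia, and 4-fold changes for 100%. In each comparison, 4 unchanged probes were called. The simulated counts were drawn independently around a common mean for each probe, with as many rises as falls. They held no shift in composition and no outlying mouse, so they cannot show the recovery where these occur. Smaller changes were not simulated, so the recovery of changes between 1.5-fold and 2-fold is not known. Within-mouse ratios were tested with exact permutation tests. The text names every member, list genes that were called (the largest changes first), and for each called member the 3 probes of highest Pearson r. The members, lists and tests were chosen with earlier results of these data known.

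Alternatives were a replicate block, other scalings (median, 12 housekeeping genes, DESeq2 size factors, upper quartile), filters at a mean count of 20 or 50, a model of only 2 groups, prior counts of 0.1 and 10, robust spread, DESeq2 1.42.0, the methods' t-test, other fold thresholds and leaving out each mouse. Total count scaling and a filter at the mean of the viral probe were chosen after seeing the data. Flow cytometry, cytokine and human data were not analysed here.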

Additional observations from a re-analysis of the deposited data

How the results depend on the processing

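The count of called members with rIL-12 against no leukemia, 4 in the report, was 2 with a replicate block, 2 in a model of only the 2 groups compared, 0 with the methods' t-test and adjusted p, 0 with a 2-fold threshold, and 0 to 6 with each mouse left out. With rIL-12 against leukemia, 2 in the report, it was 5 with scaling by housekeeping genes, 5 by total count, 4 with upper quartile scaling, 4 with a mean count of at least 50, 4 with a mean count above the viral probe, 1 with a 2-fold threshold, 0 in a model of only the 2 groups, 0 with the methods' t-test, and 0 to 5 with each mouse left out. DESeq2, robust spread and a mean count of at least 20 each added Fos, as lower, to this count. With leukemia against no leukemia, 0 in the report, it was 1 in a model of only the 2 groups (Nfatc3, lower), 0 with each mouse left out, and 0 in the other settings. The replicate block called 2 members with rIL-12 against leukemia and 0 with leukemia against none. Deviations of same-numbered mice correlated over 0.1 in 5 of 9 pairs, between -0.18 and 0.33. Those of differently numbered mice correlated between -0.39 and 0.23. With 3 mice in each group, these values cannot settle whether the mouse numbers pair the mice.

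The counts of called list genes changed too. With rIL-12 against no leukemia and each mouse left out, they were 7 to 13 for receptor signaling (9 in the report), 2 to 5 for inhibitors (2), 0 to 4 for activation induced genes (3) and 0 to 5 for the exhaustion genes (4, and 1 with housekeeping and 0 with upper quartile scaling). Against leukemia they were 0 to 11 (5), 0 to 5 (3), 0 to 6 (2) and 0 to 3 (2). The lists for leukemia against none had 0 to 3, 0 to 1, 0 to 1 and 0 to 4 (1, 1, 1 and 3 in the report). In all 3 comparisons, 0 genes of these lists passed the methods' t-test after adjustment.

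Of 696 values recomputed, 20 turned their sign, all among members not called. With leukemia against no leukemia, Fos (-0.07) became 0.00038 with housekeeping scaling and 0.023 with upper quartile scaling, and was -0.21 to 0.15 with each mouse left out. With rIL-12 against no leukemia, Nfatc4 (0.14) became -0.12 with scaling by housekeeping genes and -0.036 with scaling by the total count, and was -0.012 to 0.43 with each mouse left out. With rIL-12 against leukemia, Batf (0.27) became -0.097 with housekeeping scaling and was -0.031 to 0.44 with each mouse left out. Jun (-0.01) became 0.10 with median scaling, 0.011 with DESeq2 size factors, 0.053 in a model of only the 2 groups and 0.010 in DESeq2, and was -0.17 to 0.13 with each mouse left out. Nfatc4 (-0.13) became 0.00015 with median scaling and was -0.31 to 0.12 with each mouse left out. The cause of these differences was not tested. Models without a mouse, or with only 2 groups, rest on fewer mice, and the depth of mouse 3 of the leukemia group limits the precision of that group.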
